A study of Mus musculus with 18 samples.

Results

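The genes described here encode 9 heat shock chaperones of CD4+ T cells from inflamed lymph nodes. They are Hspa1a and Hspa1b, which encode the stress-inducible HSP70, Dnajb1, its HSP40 partner, Hsph1, which encodes the nucleotide exchange factor HSP110, Hspa8, the constitutive HSC70, Hsp90aa1 and Hsp90ab1, the inducible and constitutive HSP90, and Hspd1 and Hspe1, the HSP60 and HSP10 chaperonins. They were picked by symbol, and all 9 were found among the 15402 genes of the table and passed the filter on low values. The choice followed earlier results of these data, in which Hspa1a, Hspa1b and Dnajb1 differed with the replicate number of the libraries. Values by replicate number are therefore given as a description with no test. The set is often called cytosolic, which holds for 7 of the genes, whereas HSP60 and HSP10 work in the mitochondrial matrix.

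The libraries came from female mice of the C57/BL6 Foxp3Timer Foxp3-IRES-GFP strain, all of which received 3% oxazolone, a contact sensitiser, on the abdominal skin, and draining lymph nodes were taken on day 5. Foxp3 is the transcription factor of regulatory T cells (Treg), and Timer is a fluorescent protein under Foxp3 control whose short-lived blue form turns into a stable red form, so that blue marks recent and red marks past transcription. Each of the 6 sorted populations had 3 replicates, each made from a pool of 3 mice. Tnaive (CD44lo GFP- Timer-) and Teff (CD44hi GFP- Timer-) had no Timer, and the remaining 4 were GFP+ Foxp3 expressers. Pers1 (Blue-intermediate Red-low, labelled de novo) and Pers2 (Blue-high Red-high, labelled maturing) are called the persistent expressers below, while PAt was Blue-low Red-high (labelled mature) and Arrested was Blue-negative Red-intermediate (labelled decaying). No population from untreated mice was among these libraries, so the response to oxazolone itself cannot be read from them. Mice were 5 to 10 weeks old at sensitisation, a range given for the protocol and not for single pools. Values are log2 normalised counts, which an earlier description of these data gives as coming from a regularised log transform. Such a transform can shrink differences, so 1 unit is a doubling on this scale but need not be one of counts. Since the libraries are bulk RNA, fewer cells of a type and less RNA per cell cannot be told apart.

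Heat shock chaperones bind unfolded stretches of other proteins. HSP70 takes up a client with the help of an HSP40, releases it when a nucleotide exchange factor such as HSP110 acts, and can pass it on to HSP90, which holds kinases, receptors and transcription factors in an active fold. Under heat or other protein-damaging stress, heat shock factor 1 (HSF1) binds repeats of the motif NGAAN and switches on the inducible members, whereas HSC70 and the constitutive HSP90 are made in all cells and rise with protein synthesis. HSP60 and its lid HSP10 fold proteins imported into mitochondria.

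Hspa1a and Hspa1b are neighbouring copies without introns, and the sequences around them show how alike they are. In GENCODE vM21 (GRCm38, the same assembly as mm10), Hspa1a (ENSMUSG00000091971.3) lies at chr17:34969190-34972156 and Hspa1b (ENSMUSG00000090877.3) at chr17:34956436-34959238, both on the minus strand with 9951 bases between them. Their coding sequences are 99.43% identical. Of all stretches of 100 bases in the Hspa1a transcript, 47.07% also occur in that of Hspa1b, so reads cannot be split cleanly and the values of these copies are uncertain relative to each other. The 250 bases before each start are printed from RefSeq (GRCm38.p6) because both genes moved together in these libraries. They lie at chr17:34972157-34972406 and chr17:34959239-34959488 on the minus strand, run 5′ to 3′ and differ at 3 positions. Capitals mark matches to TTCNNGAA or GAANNTTC, 2 inverted units of the heat shock element.
Hspa1a: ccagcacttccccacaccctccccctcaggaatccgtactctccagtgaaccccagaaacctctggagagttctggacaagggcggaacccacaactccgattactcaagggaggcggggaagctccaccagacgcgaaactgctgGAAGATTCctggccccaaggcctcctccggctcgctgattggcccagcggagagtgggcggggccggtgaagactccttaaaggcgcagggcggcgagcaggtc
Hspa1b: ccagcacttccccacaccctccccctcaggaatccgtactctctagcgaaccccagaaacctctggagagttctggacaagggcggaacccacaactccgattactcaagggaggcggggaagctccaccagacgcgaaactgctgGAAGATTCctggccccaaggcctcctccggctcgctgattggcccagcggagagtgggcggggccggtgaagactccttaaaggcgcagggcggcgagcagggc
For the members with a mitochondrial or HSP110 product, a stretch of 30 bases with the match is shown in the same way. That of Hspe1, plus strand, lies at chr1:55088053-55088082 and is shared with a window of Hspd1, which is transcribed from the other strand with its span overlapping that of Hspe1. That of Hsph1, minus strand, lies at chr5:149636351-149636380, before the RefSeq start but overlapping the GENCODE span of the gene.
Hspe1: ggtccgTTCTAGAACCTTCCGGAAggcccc
Hsph1: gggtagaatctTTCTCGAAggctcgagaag
RefSeq windows of 300 bases (250 before to 50 after a start) were at hand for 6 members. Those of 5 members (Hspa1a, Hspa1b, Hsph1, Hspd1 and Hspe1) held TTCNNGAA or GAANNTTC, searched on both strands, as did those of 17.0% of 27025 genes. The form with 3 such units in a row was in windows of Hsph1, Hspd1 and Hspe1 and of 0.662% of all genes. Neither form was in the windows of Dnajb1. The match begins at position -104 from the start in Hspa1a and Hspa1b, 33 bases before the start in Hsph1 and 89 in Hspe1. From a second RefSeq start of Hsph1 it is at position -54. The Hsph1 windows hold 3 matches, of which only 1 lies before the start. The stretch shown for Hsph1 is therefore not its form with 3 units. A match is a description of the letters and not a binding site. Hspa8, Hsp90aa1 and Hsp90ab1 have no entry in the table used.

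The other members lie on several chromosomes. In GENCODE vM21, Dnajb1 lies at chr8:83608193-83612653 (+), Hsph1 at chr5:149614287-149636376 (-), Hspa8 at chr9:40800984-40810087 (+) with the small nucleolar RNA genes Snord14c, Snord14d and Snord14e inside it, Hsp90aa1 at chr12:110690605-110702728 (-), Hsp90ab1 at chr17:45567775-45573271 (-), Hspd1 at chr1:55077835-55088243 (-) and Hspe1 at chr1:55088132-55091307 (+). Other pairs are less alike than the HSP70 copies. The coding sequences of Hsp90aa1 and Hsp90ab1 are 75.58% identical and those of Hspa1a and Hspa8 73.93%, and neither pair shares a stretch of 100 bases.

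The general markers of CD4 T cells were present, with a summed level of 10 genes between 17.32 and 17.89 in all 18 libraries. Of the genes behind the sort, Foxp3 was at 14.36 to 14.85 in the 12 libraries of GFP+ cells, at 11.27 to 11.38 in Tnaive and at 10.38 to 10.64 in Teff, so its transcript was lower but not near 0 in the GFP- cells. Cd44 was at 9.47 to 9.72 in Tnaive, 13.04 to 13.05 in Teff, 12.79 to 13.08 in the persistent expressers and 11.70 to 12.05 in PAt and Arrested. Markers of other cells were also found, and their sums were highest in Teff. The log2 sum of 8 B cell markers was 12.75 to 13.27 in Teff, 9.91 to 10.43 in Tnaive, 11.25 to 11.46 in Pers1 and Pers2, and 11.81 to 12.40 in PAt and Arrested. The sums of myeloid (8 of 10 in the table), dendritic (8 of 8), NK (5 of 6) and CD8 (2 of 2) markers were also highest in Teff, at 10.44 to 12.48. Some single markers had their highest mean elsewhere. Itgam was at 8.88 in Pers1 and 8.33 in Teff, and Xcr1 at 5.44 and 5.37. Cst3 was at 10.65 in Pers2 and 10.45 in Teff, Eomes at 9.13 in Tnaive and 7.88 in Teff, and Cd79b at 10.03 in PAt and 9.88 in Teff. Cd14, a defining myeloid marker, was below 1 in all 18 libraries. The medians over tested genes ranged from 9.59 to 9.76 across libraries. The read depth of the libraries is unknown, since only normalised values were used.

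Per kilobase of exon, the constitutive chaperones were the most abundant. On the log2 scale per kilobase, the mean over 18 libraries was 15.10 for Hspa8 and 14.93 for Hsp90ab1, then 12.94 for Hspa1b, 12.58 for Hsp90aa1, 12.43 for Hspa1a, 11.79 for Hspe1, 11.26 for Hspd1, 10.92 for Dnajb1 and 9.49 for Hsph1. The members thus spanned a wide range of levels. The order of inducible HSP70 and HSP90 turned between populations, with Hspa1b at 13.95 per kilobase against 12.45 for Hsp90aa1 in Tnaive, but at 12.05 against 12.88 in Pers1 and at 12.13 against 12.88 in Pers2.

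The inducible HSP70 genes varied most. Hspa1a was at 14.12, 15.16 and 15.73 in Tnaive replicates 1, 2 and 3, at 13.30, 13.97 and 15.18 in Teff, and at 12.06, 13.19 and 14.22 in Pers1. It was at 11.90, 13.47 and 14.32 in Pers2, at 12.74, 13.88 and 15.33 in PAt, and at 13.42, 14.74 and 15.33 in Arrested. Within each population the replicate 1 library was lowest and the replicate 3 library highest, and all neighbouring populations overlapped.
Hspa1b, the second copy, followed it at a slightly higher level, with means ± SD (n = 3) of 15.43 ± 0.78 in Tnaive, 14.97 ± 0.95 in Arrested, 14.53 ± 0.88 in Teff, 14.45 ± 1.19 in PAt, 13.62 ± 1.19 in Pers2 and 13.54 ± 1.04 in Pers1. The order of the populations was the same for both copies, with Tnaive first and the persistent expressers last.
Dnajb1, the HSP40 that delivers clients to HSP70, was at 12.97, 13.33 and 13.34 in Tnaive, at 12.16, 12.48 and 12.53 in Teff, and at 11.83, 12.03 and 12.40 in Pers1. It was at 11.78, 12.15 and 12.36 in Pers2, at 12.49, 12.85 and 13.20 in PAt, and at 12.59, 13.05 and 13.32 in Arrested. The spread of Dnajb1 between replicates was far narrower, and all 6 persistent libraries lay below all 6 PAt and Arrested libraries.

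**Figure D1:**
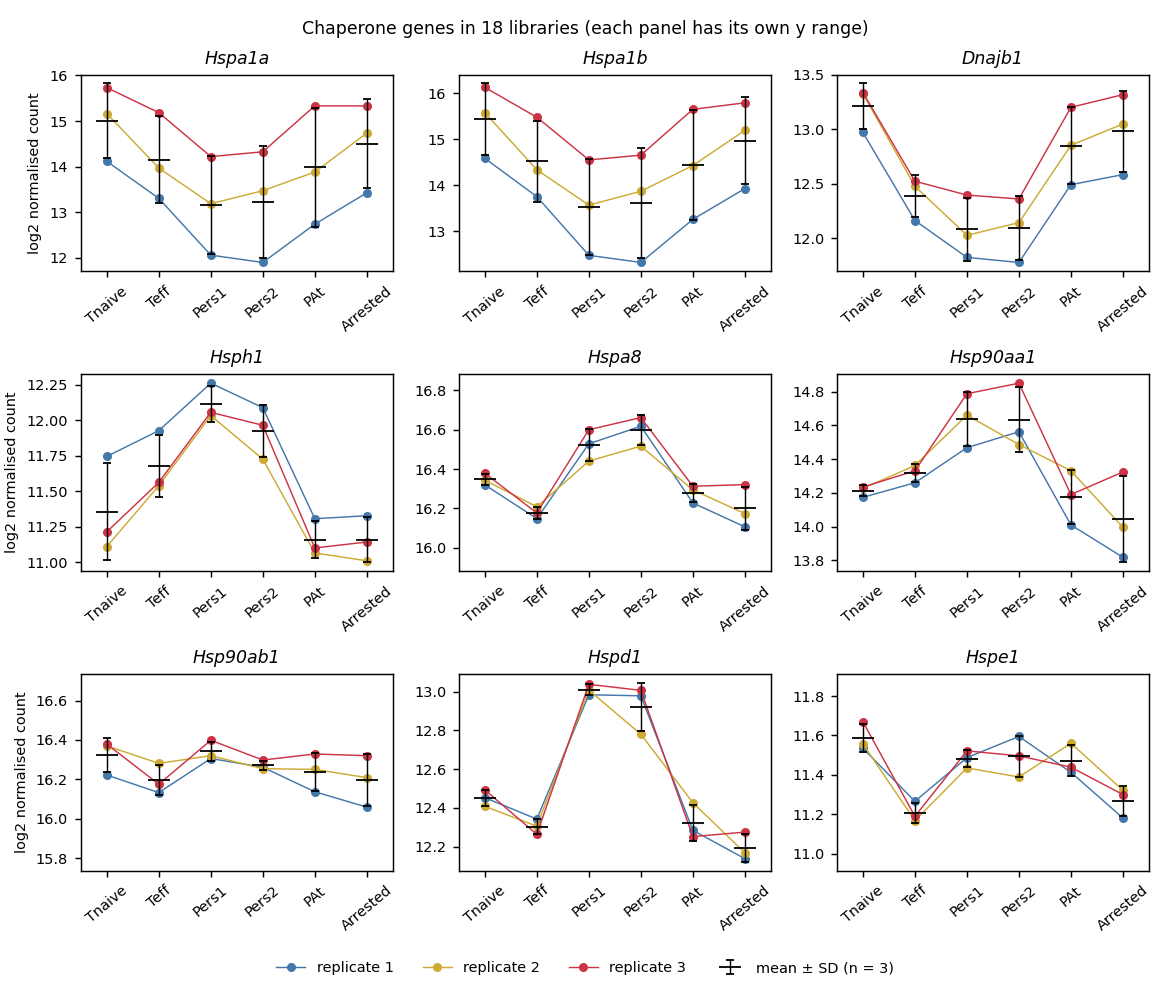
Log2 normalised count (y, own range in each panel) of the 9 chaperone genes in the 6 populations (x), with 1 point per library coloured by replicate number, lines joining libraries of the same number, and black bars for the mean ± SD of 3 libraries. For Hspa1a and Hspa1b the 3 lines run nearly parallel, while for Hspd1 they nearly coincide.

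The spread of Hspa1a and Hspa1b followed the replicate number in every population. The replicate 3 library exceeded the replicate 1 library by 1.62 in Tnaive, 1.88 in Teff, 2.16 in the Pers1 libraries, 2.43 in those of Pers2, 2.60 in PAt and 1.91 in Arrested for Hspa1a, a mean of 2.10 ± 0.37 (SD, n = 6 populations) or 4.29-fold. For Hspa1b the mean was 1.99 ± 0.34, or 3.96-fold. These were the highest and the second highest of such means among 13190 genes, and the replicate 2 libraries lay between the others in 6 of 6 populations. For Dnajb1 the mean was 0.55 ± 0.16, or 1.47-fold, again above 0 in 6 of 6 populations and 25th from the highest. These values chose the members and carry no test.

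The remaining members stood closer together across replicate numbers. For Hsp90aa1 the mean of replicate 3 minus replicate 1 was 0.24 ± 0.17, for Hsp90ab1 0.13 ± 0.09 and for Hspa8 0.08 ± 0.07, each above 0 in 6 of 6 populations, which for Hspa8 no longer held after quantile normalisation between libraries. Hsph1, whose product releases HSP70 clients, went the other way, with a mean of -0.27 ± 0.15 and the replicate 3 library below the replicate 1 library in 6 of 6 populations. Hspd1 and Hspe1 had means of 0.02 ± 0.07 and 0.02 ± 0.10, above 0 in 4 of 6. Thus 6 members were above and 1 was below in all 6 populations. Among all tested genes, 6.05% were above and 7.21% below in this sense, and 0.0227% (3 genes) had a mean over 1. Those 3 genes were Hspa1a, Hspa1b and the non-member Hspa1l, and nothing is read from the counts because the members were chosen on them.

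**Figure D2:**
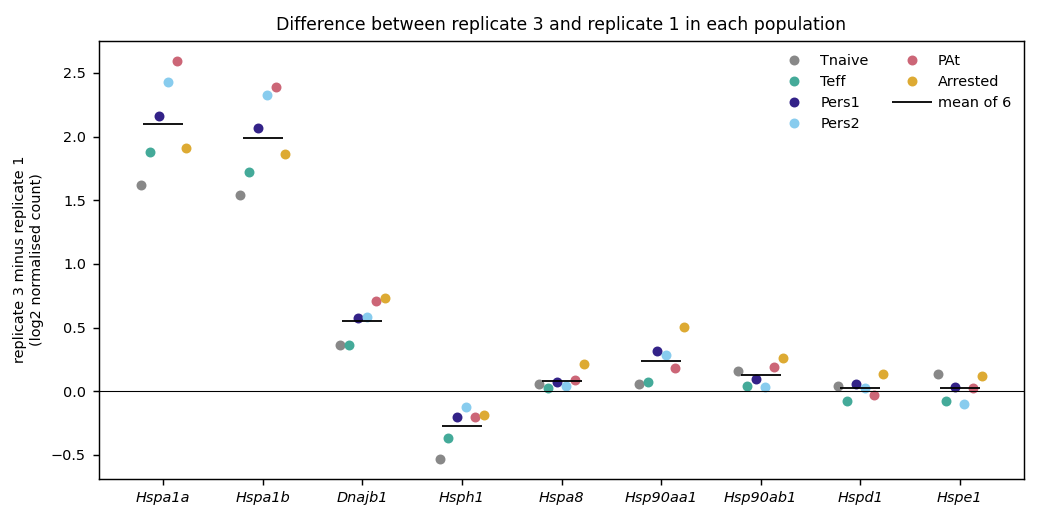
Replicate 3 minus replicate 1 (y, log2 normalised count) for each member (x), with 1 point per population and a black bar for the mean of 6. Hspa1a and Hspa1b lie between 1.54 and 2.60, Dnajb1 between 0.36 and 0.73, and Hsph1 below 0 in all 6 populations.

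In terms of variance, the replicate number accounted for 61.39% of the spread of Hspa1a over the 18 libraries and for 57.5% of that of Hspa1b, population for 35.93% and 40.12%, and 2.681% and 2.373% were left. The share of replicate number was 37.62% for Hsp90ab1, 20.93% for Dnajb1, 14.28% for Hsph1 and 13.78% for Hsp90aa1, but 0.2473% for Hspd1, against a median of 2.495% over all tested genes. Hspa1a and Hspa1b, Dnajb1 and Hspd1 thus divided between replicate number and population in very different ways.

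Other measures moved with the replicate number too, and their part in the pattern was not tested. The log2 sum of the 8 B cell markers was higher in replicate 3 than in replicate 1 by 0.10 to 0.52 over the 6 populations and that of the 2 CD8 markers by 0.12 to 0.35, whereas that of the 10 CD4 T cell markers differed by -0.07 to 0.00. The corresponding difference ranged from -0.35 to 0.03 for myeloid, from -0.28 to 0.25 for dendritic and from -0.12 to 0.37 for NK markers. What a replicate number stands for beyond a pool of mice, such as a day of sorting, is not given in the sources used here.

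Further lists were read by replicate number in the same way, where 6.05% of all tested genes were above and 7.21% below in all 6 populations. Of 21 further heat-inducible genes tested, 1 was above and 1 below in all 6 populations, near these shares, with a median of -0.06. The largest means among them were 0.40 for Hspb1 (HSP27, above 0 in 6 of 6 populations), -0.37 for Bag3 (an HSP70 co-chaperone, 1 of 6), -0.22 for Zfand2a (0 of 6), -0.17 for Dnajb4 (2 of 6) and -0.16 for Hmox1 (haem oxygenase 1, 1 of 6). Of 26 immediate early genes, which cells switch on within minutes of a stimulus, 2 were above and 11 below in all 6 populations, with a median of -0.19. The largest were -0.74 for Nr4a2, -0.63 for Junb, 0.49 for Jun, -0.45 for Nr4a1 and 0.39 for Fosb. Of the heat shock factors, all 3 of which are named after their values were seen, Hsf1 had a mean of -0.02, above 0 in 2 of 6 populations, Hsf2 one of 0.21 (5 of 6) and Hsf4 one of -0.07 (1 of 6). Among the other lists, none of 16 proliferation genes was above and 1 was below in all 6 populations (median -0.07), and 2 of 12 common reference genes were above and none below (median -0.02).

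The gene whose deviations from the population means were most like those of the mean of Hspa1a, Hspa1b and Dnajb1 was Hspa1l, the testis-type HSP70 of the same cluster (Pearson's r = 0.98 over 18 libraries). Its start lies 546 bases from that of Hspa1a on the opposite strand. Its coding sequence is 82.82% identical to that of Hspa1a, and whether counting used the strand is not stated, so its values are uncertain. Hspa1l was at 9.31, 10.58 and 11.19 in Tnaive and at 7.77, 8.88 and 9.77 in Pers2, with a mean of replicate 3 minus replicate 1 of 1.89 (6 of 6 populations). The next were Rsrp1 (r = 0.97), Phf11c (0.96), Tmem181b-ps and Irf7 (0.96 and 0.95), Eps8l1, Tmem181a, Oas2 and Slfn8 (0.95 each) and Mx1 (0.94), all above 0 in 6 of 6 populations. Among these, Irf7, Oas2 and Mx1 are known as interferon-inducible genes, and their means of replicate 3 minus replicate 1 were 0.32, 0.59 and 0.90. These correlations are a description, since the libraries share replicate numbers and every gene that differs with them scores highly.

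Among the members themselves, deviations from the population means gave r = 1.00 for Hspa1a with Hspa1b, 0.96 for either with Dnajb1, 0.87 for Dnajb1 with Hsp90ab1, 0.80 for Hspa8 with Hsp90aa1 and -0.65 for Hspa1a with Hsph1, over the same 18 libraries. Since reads of Hspa1a and Hspa1b cannot be split cleanly, nothing is read from the r between these copies. Hspd1 had r = 0.05 with Hspa1a and 0.75 with Hspe1. On the values as they stand, in which population differences also count, Hspa1a had r = -0.16 in place of 0.68 with Hsp90aa1, -0.26 in place of 0.53 with Hspa8 and 0.36 in place of 0.73 with Hsp90ab1. Inducible HSP90 and HSC70 thus went with Hspa1a within populations but not over all values, whereas for constitutive HSP90 the correlation kept its sign.

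The comparison of the persistent expressers with PAt and Arrested asked how ongoing Foxp3 transcription in Treg goes with expression. In it, Dnajb1 and Hspa1b were lower and Hsph1, Hspa8, Hsp90aa1, Hspd1 and Hspe1 higher in the persistent expressers. A gene was called when its adjusted p (limma, Benjamini-Hochberg over 13190 genes) was under 0.05 and its log2 fold change over 1 in size, a rule that 7.51% of all tested genes met here (2.77% in the lower direction).

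By adjusted p alone, 5 members were higher and 2 lower. This has to be read against 35.9% of all tested genes higher and 35.1% lower by the same rule (70.9% in all). The median log2 fold change was 0.12 over the 9 members and -0.01 over all tested genes. The libraries of 5 members did not overlap between the groups (4 higher, 1 lower), as was the case for 45.8% of all tested genes.

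Without the replicate block, Hspa1b was the only member called, at -1.13 (SE 0.45, 95% interval -2.08 to -0.19, adjusted p = 0.031), with 6 libraries against 6. Pers1 and Pers2 share replicate numbers, as do PAt and Arrested, so the 6 libraries of a side may not be independent. Hspa1a was at -1.05 (SE 0.48, -2.05 to -0.05, adjusted p = 0.056), just outside the threshold. The groups overlapped in both genes because of the replicate spread, but within a replicate number the difference hardly varied. For Hspa1a it was -1.10, -0.98 and -1.06 within replicates 1, 2 and 3, and for Hspa1b -1.19, -1.09 and -1.12. With the replicate number as a block, the SE fell to 0.10 and 0.09, and both genes were called (adjusted p = 8.14e-09 for Hspa1a and 7.1e-10 for Hspa1b). The count of called members was then 2, with 7.52% of all tested genes called. Reads of these copies cannot be split cleanly, so they may not count as separate results. Without the block, single libraries decided these calls. Hspa1b was no longer called without Pers1 replicate 1 (-0.87, adjusted p = 0.099), Pers2 replicate 1 (-0.81, 0.11), PAt replicate 3 (-0.83, 0.11), Arrested replicate 2 (-1.08, 0.059) or Arrested replicate 3 (-0.93, 0.081). Hspa1a was called without Pers1 replicate 3 (-1.31, adjusted p = 0.023), Pers2 replicate 3 (-1.32, 0.021), PAt replicate 1 (-1.36, 0.016) or Arrested replicate 1 (-1.32, 0.019).

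Dnajb1 was lower by 0.83 on the log2 scale in the persistent expressers (log2 fold change -0.83, SE 0.13, adjusted p = 1.16e-05), with all 6 libraries below all 6 of PAt and Arrested and differences of -0.74, -0.87 and -0.88 within replicates 1, 2 and 3. It was below the size threshold for a call. HSP70 and its partner thus had the same sign in each replicate number.

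Hsph1 went in the opposite direction to the HSP70 genes that its product serves. It was at 12.26, 12.03 and 12.05 in the Pers1 libraries, at 12.09, 11.73 and 11.96 in those of Pers2, at 11.31, 11.07 and 11.10 in PAt and at 11.33, 11.01 and 11.14 in Arrested. All 6 persistent libraries were above all 6 of the others, and the log2 fold change was 0.86 (SE 0.10, adjusted p = 7.29e-08), the largest rise among the members. It differed by 0.86, 0.84 and 0.89 within replicates 1, 2 and 3.

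Hspd1, which encodes HSP60, was the member with the clearest separation by population. It was at 12.98, 13.01 and 13.04 in Pers1 and at 12.98, 12.78 and 13.01 in Pers2. In the other 12 libraries it lay between 12.14 and 12.49, so that no library of another population reached the persistent ones. Against PAt and Arrested the log2 fold change was 0.71 (SE 0.04, adjusted p = 3.14e-12). Hspe1, its co-chaperonin with a shared promoter region, differed far less, at 11.49, 11.43 and 11.52 in the Pers1 libraries, 11.59, 11.39 and 11.50 in those of Pers2, 11.41, 11.56 and 11.44 in PAt and 11.18, 11.32 and 11.30 in Arrested. These groups overlapped, and the log2 fold change was 0.12 (SE 0.04, adjusted p = 0.019). Within replicates 1, 2 and 3 it was 0.24, -0.03 and 0.14, and it did not pass after quantile normalisation (0.04, adjusted p = 0.36) or without Pers2 replicate 1 (0.09, 0.069), PAt replicate 1 (0.10, 0.052) or Arrested replicate 1 (0.10, 0.059). Over all 27 alternatives, which also leave out whole replicate numbers, Hspe1 passed in 21. With libraries or replicate numbers left out it ranged from 0.055 to 0.19, with adjusted p from 0.0045 to 0.38. Over the 18 libraries Hspd1 and Hspe1 had r = 0.53, and r = 0.75 on deviations from the population means. Named pseudogenes in GENCODE (5 of Hspd1 and 6 of Hspe1) and the overlap of both gene spans make their counts less certain.

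Inducible HSP90 and HSC70 were higher in the persistent expressers by smaller amounts. Hsp90aa1 was between 14.47 and 14.85 there and between 13.82 and 14.33 in PAt and Arrested, with a log2 fold change of 0.52 (SE 0.08, adjusted p = 3.30e-06) and no overlap. Hspa8 was between 16.44 and 16.66 against 16.11 to 16.32, with a log2 fold change of 0.32 (SE 0.04, adjusted p = 6.73e-07) and no overlap. Hsp90ab1 was between 16.25 and 16.40 against 16.06 to 16.33, with a log2 fold change of 0.09 (SE 0.05, adjusted p = 0.099). It passed with the replicate block (adjusted p = 0.032), and also without PAt replicate 3 (0.11, adjusted p = 0.048) or Arrested replicate 3 (0.12, 0.023), and was at 0.05 without Arrested replicate 1. With the block, all 9 members passed at adjusted p under 0.05, 6 higher and 3 lower, against 72.6% of all tested genes. Hspa1a was the other member added, and it was lower.

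**Figure D3:**
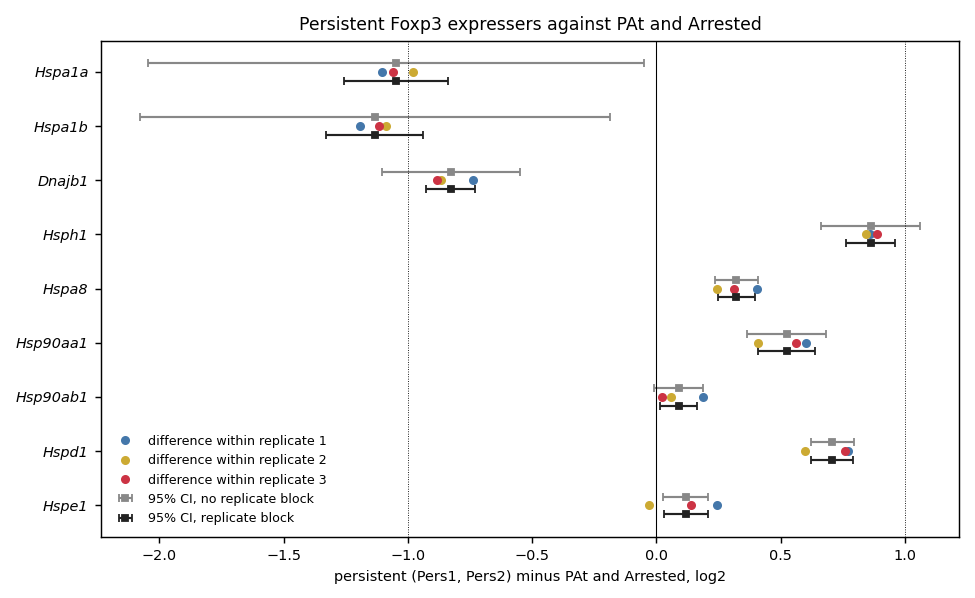
Log2 difference between persistent expressers (6 libraries) and PAt and Arrested (6 libraries) for each member, with 95% intervals without (grey) and with (black) the replicate block and coloured points for the difference within each replicate number. The intervals of Hspa1a and Hspa1b narrow with the block, for Hspa1a from -2.05 to -0.05 down to -1.26 to -0.84, and their points lie close together.

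Several measures moved with this comparison, and their part in it was not tested. By adjusted p alone, 35.9% of all tested genes were higher and 35.1% lower. All 8 B cell markers passed in the lower direction (median -0.88), with Cd79a at -1.14 and Ms4a1 at -1.11, and so did both CD8 markers (median -0.81). Of 7 myeloid markers tested 2 were higher, with Itgam at 2.05, and of 8 dendritic markers 1 was higher and 1 lower, and of 5 NK markers 2 were higher and 1 lower. Of 10 CD4 T cell markers 7 were higher and 1 lower (median 0.17). All 16 proliferation genes were higher, with Rrm2 at 3.29, Ccnb1 at 3.10, Cdk1 at 3.02 and Aurkb at 2.94. Of 12 common reference genes 9 were higher and 2 lower (median 0.42), with Gapdh at 1.06.

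Teff were compared with Tnaive for the change with activation in cells without Timer. No member was called here, where 11.2% of all tested genes were. By adjusted p alone, 1 member was higher and 4 were lower (59.0% of all tested genes passed, 31.3% higher and 27.7% lower). The libraries of 5 members did not overlap, 1 higher and 4 lower, as was the case for 64.9% of all tested genes. The higher one was Hsp90aa1 (0.11, adjusted p = 0.42), whereas Hsph1, the member higher by adjusted p, overlapped. The median was -0.17 over the members and 0.00 over all tested genes. Dnajb1 was lower in Teff in all 3 libraries (log2 fold change -0.82, SE 0.19, adjusted p = 0.00079), and so was Hspe1 (-0.38, SE 0.06, adjusted p = 1.77e-05). Hspe1 was at 11.53, 11.56 and 11.67 in Tnaive and at 11.27, 11.17 and 11.19 in Teff.
Hspd1 was at -0.15 (SE 0.06, adjusted p = 0.037) and Hsph1 at 0.32 (SE 0.14, adjusted p = 0.049). Hspa8 was at -0.17 (SE 0.06, adjusted p = 0.018) but at 0.17 (adjusted p = 0.023) once values were quantile normalised between libraries, which moved the median of all genes in this comparison from 0.00 to -0.10. The direction of Hspa8 here therefore depends on the scaling. Hspa1a and Hspa1b were at -0.85 (SE 0.68, adjusted p = 0.29) and -0.91 (SE 0.64, adjusted p = 0.23), and with the replicate block at the same values with SE 0.14 and 0.13 (adjusted p = 2.82e-05 and 4.86e-06). With the block 8 members passed, 1 higher and 7 lower (61.7% of all tested genes), the additions being Hspa1a, Hspa1b and Hsp90ab1. For Hsp90ab1 the value was -0.13 (adjusted p = 0.035 with the block), and 0.16 after quantile normalisation. It also passed without the block once Tnaive replicate 1 was left out (-0.18, 0.042).
Several of these differences depended on single libraries. Without the block, Hspa1a was at -1.30 without Tnaive replicate 1, -0.49 without Tnaive replicate 3, -0.43 without Teff replicate 1 and -1.37 without Teff replicate 3, and Hspa1b was at -0.56 without Tnaive replicate 3, -0.52 without Teff replicate 1 and -1.39 without Teff replicate 3. Hsph1 was at 0.51 without Tnaive replicate 1. It did not pass without Tnaive replicate 2 (0.20, adjusted p = 0.26), Tnaive replicate 3 (0.25, 0.17) or Teff replicate 1 (0.19, 0.26), nor without any 1 of Pers1 replicates 2 and 3, Pers2 replicate 3 and PAt replicates 2 and 3, at the same value of 0.32 and adjusted p of 0.053 to 0.056. Hspa8 did not pass without Tnaive replicate 3 (-0.15, 0.062) or Teff replicate 1 (-0.15, 0.062). Hspd1 did not pass without Tnaive replicate 1 (-0.15, 0.073), Tnaive replicate 3 (-0.13, 0.12), Teff replicate 2 (-0.15, 0.070) or Teff replicate 3 (-0.13, 0.12). Dnajb1 and Hspe1 passed with each library left out. Over all 27 alternatives, which also leave out whole replicate numbers, Hsph1 passed in 13, Hspa8 in 23 and Hspd1 in 20. For Hspa8 the value was reversed in 1 alternative. Teff had the highest summed B cell, myeloid, dendritic and NK markers, as given above, and the part of these cells in the differences was not tested.

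The difference between these contrasts was tested as an interaction, the persistent difference minus the effector difference. It passed for 6 members, all higher, and none was past a size of 1 (8.42% of all tested genes were called, and 48.7% passed by adjusted p alone, 23.2% higher). Hspd1 differed by 0.85 (SE 0.07, adjusted p = 3.17e-09), with 0.71 in the persistent and -0.15 in the effector contrast. Hspe1 differed by 0.50 (SE 0.07, adjusted p = 1.20e-05) and Hspa8 by 0.49 (SE 0.07, adjusted p = 9.29e-06).
Hsph1 differed by 0.54 (SE 0.17, adjusted p = 0.010), Hsp90aa1 by 0.42 (SE 0.13, adjusted p = 0.013) and Hsp90ab1 by 0.22 (SE 0.08, adjusted p = 0.034), a direction that turned to -0.08 for Hsp90ab1 after quantile normalisation. In the same setting Hspa8 (0.15, adjusted p = 0.10) and Hsp90aa1 (0.28, 0.12) no longer passed. Hsph1 did not pass without Tnaive replicate 1 (0.35, 0.051), and Hsp90ab1 did not pass without any 1 of Tnaive replicates 2 and 3, Teff replicates 1 and 3, Pers1 replicate 3, Pers2 replicate 3, PAt replicate 1 and Arrested replicate 1 (0.18 to 0.21, adjusted p of 0.050 to 0.10). Over all 26 alternatives, which also leave out whole replicate numbers, Hsph1 passed in 24 and Hsp90ab1 in 13. For Hspa1a, Hspa1b and Dnajb1 no difference between the contrasts was detected. With the block, that of Dnajb1 was -0.0041 (95% interval -0.17 to 0.17, adjusted p = 0.97), that of Hspa1a -0.20 (-0.56 to 0.17, 0.37) and that of Hspa1b -0.23 (-0.56 to 0.11, 0.26). Markers of other cells moved in the interaction too, and their part in it was not tested. By adjusted p alone, all 8 B cell markers (median -3.31) and both CD8 markers (median -2.23) were lower. So were 7 of 8 dendritic (median -2.10), 6 of 7 myeloid (median -2.37, 1 higher) and 4 of 5 NK markers (median -2.54).

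**Figure D4:**
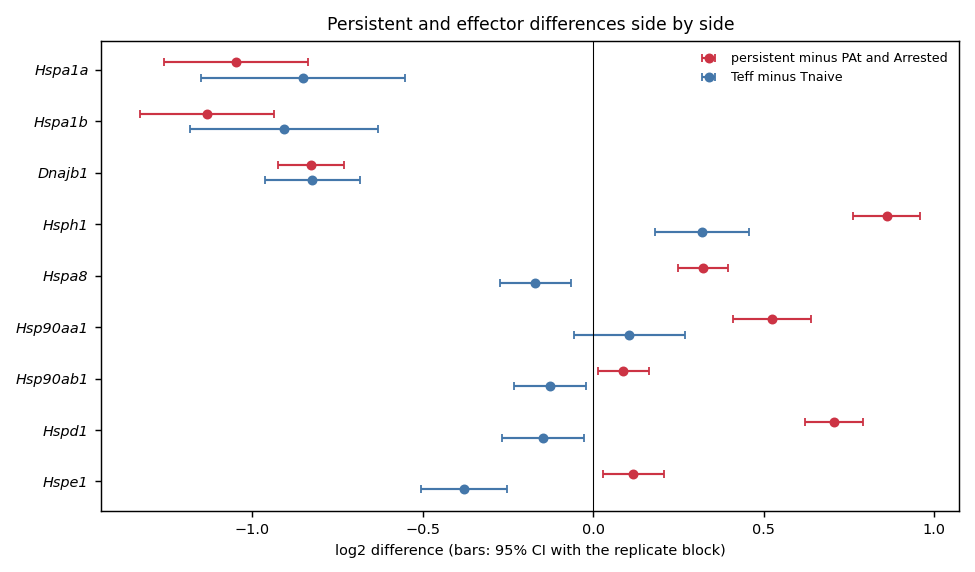
Log2 difference of each member in the persistent contrast (red, 6 against 6 libraries) and in the effector contrast (blue, 3 against 3), with 95% intervals from the fit with the replicate block. Hspa1a, Hspa1b and Dnajb1 are below 0 in both contrasts, while Hspd1, Hspe1, Hspa8 and Hsp90ab1 are above 0 in the first and below 0 in the second.

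Against Teff, the persistent expressers had more HSP60, HSP10, HSC70, HSP110 and inducible HSP90 transcript. No member was called (8.31% of all tested genes were), and 5 passed by adjusted p alone, all higher (58.7% of all tested genes, 29.8% higher). These were Hspd1 (0.66, SE 0.05), Hspa8 (0.38, SE 0.05), Hsph1 (0.34, SE 0.12), Hsp90aa1 (0.32, SE 0.09) and Hspe1 (0.28, SE 0.05), with adjusted p between 4.15e-10 and 0.016. Hsph1 did not pass without Teff replicate 2 (0.28, adjusted p = 0.096) or Teff replicate 3 (0.29, 0.084). Over all 27 alternatives, which also leave out whole replicate numbers, it passed in 24, with adjusted p up to 0.13. With the replicate block all 9 passed, with Hspa1a at -0.96, Hspa1b at -0.95 and Dnajb1 at -0.30 in the lower direction and Hsp90ab1 at 0.11 in the higher (61.3% of all tested genes passed). Without the block, single libraries moved both HSP70 copies, Hspa1a to -0.44 and Hspa1b to -0.47 without Teff replicate 3, and to -0.63 and -0.62 without Pers2 replicate 1. Markers of other cells moved with this contrast too, and their part in it was not tested. All 8 B cell markers were lower (median -1.65), as were 7 of 8 dendritic (median -2.02), 5 of 7 myeloid (median -2.21, 1 higher), 4 of 5 NK (median -1.64) and both CD8 markers (median -2.01), and all 16 proliferation genes were higher (median 1.89). This contrast shares the persistent and the Teff libraries with the contrasts above and is not independent of them.

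PAt and Arrested were also set against both Timer-negative populations. Against Tnaive no member was called (7.90% of all tested genes), and Hspd1 (-0.19, SE 0.05, adjusted p = 0.0033) and Hspe1 (-0.22, SE 0.05, adjusted p = 0.0017) were lower (50.7% of all tested genes passed, 23.8% lower). Hspe1 passed in all 27 alternatives and Hspd1 in 26 of them, with adjusted p up to 0.069. Single libraries decided some other members, since without Arrested replicate 3 Dnajb1 (-0.38, adjusted p = 0.049), Hspa8 (-0.14, 0.017) and Hsp90ab1 (-0.14, 0.040) passed and without Tnaive replicate 2 Hsph1 did (-0.32, 0.049). With the block 8 members were lower (53.8% of all tested genes passed), with values from -0.76 for Hspa1a to -0.11 for Hsp90ab1. Without the block, Hspa1a was at -1.21 and Hspa1b at -1.14 without Tnaive replicate 1, at -0.40 and -0.37 without Tnaive replicate 3, at -0.45 and -0.43 without PAt replicate 1 and at -0.49 and -0.46 without Arrested replicate 1. In the same fit Hsph1 was at -0.0033 without Tnaive replicate 1, in place of -0.20, and Dnajb1 at -0.20 without Arrested replicate 1, in place of -0.30. Hspa8 at -0.11 and Hsp90ab1 at -0.11 turned to 0.18 and 0.13 after quantile normalisation without the block. The direction of both therefore depends on the scaling, although both count among the members lower with the block. Over all 27 alternatives the adjusted p of Hspa8 ranged from 0.0090 to 0.36. All 8 B cell markers (median 1.67), 4 of 7 myeloid, 3 of 5 NK and 14 of 16 proliferation genes (median 1.82) were higher than in Tnaive, and their part in these values was not tested.
Against Teff no member was called (6.88% of all tested genes), while Dnajb1 (0.53, SE 0.16, adjusted p = 0.0098) and Hspe1 (0.16, SE 0.05, adjusted p = 0.014) were higher and Hsph1 was lower (-0.52, SE 0.12, adjusted p = 0.00088), where 52.7% of all tested genes passed. Dnajb1 did not pass without Teff replicate 1 (0.42, adjusted p = 0.075), nor Hspe1 without Teff replicate 2 (0.14, 0.066) or Teff replicate 3 (0.15, 0.053). Over all 27 alternatives, which also leave out whole replicate numbers, Dnajb1 passed in 25 and Hspe1 in 23. The highest adjusted p was 0.087 for Dnajb1 and 0.18 for Hspe1. Hsp90aa1 (-0.21, adjusted p = 0.071) passed with the block (0.014), where 55.7% of all tested genes did, and without PAt replicate 2 (-0.24, 0.037) or Arrested replicate 3 (-0.28, 0.0066). All 8 dendritic (median -1.998), all 7 myeloid (median -2.22), all 5 NK (median -1.34) and 6 of 8 B cell markers (median -0.59) were lower than in Teff, as were 13 of 16 proliferation genes (median -0.72), and their part was not tested.

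Within the persistent pair the members were close, whereas within the later pair Hspa1a and Hspa1b differed more. For Pers2 against Pers1 the 9 log2 fold changes ranged from -0.19 to 0.08, none with an adjusted p under 0.05 without or with the replicate block, where 0.190% of all tested genes were called and 10.6% passed by adjusted p alone (14.2% with the block). For Arrested against PAt they ranged from -0.20 to 0.52, none with an adjusted p under 0.05 (0.121% of all tested genes were called, 5.04% passed). With the block, Hspa1a (0.51, adjusted p = 0.031), Hspa1b (0.52, 0.018) and Hspe1 (-0.20, 0.047) passed, where 7.09% of all tested genes did. Both HSP70 copies differed by 0.67 to 0.86 within replicates 1 and 2 but by -0.0012 and 0.14 within replicate 3. Hspe1 also passed without the block once Pers2 replicate 2 was left out (-0.20, 0.046). Without PAt replicate 1 and without the block, both turned to values just below 0 (-0.11 and -0.07).

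The wider chaperone network gave these values a setting. Lists were compiled from textbook knowledge with earlier results known, and genes can be in several (Dnajb4 and Hspa4l, for example, are in both the heat-inducible and the HSP70 list). List counts have to be read against 35.9% of all tested genes higher and 35.1% lower by adjusted p alone in the persistent comparison, and 7.51% called. For persistent expressers against PAt and Arrested, by adjusted p alone, 12 of 20 HSP90 co-chaperones were higher and 3 lower (median 0.20), led by Fkbp5 (1.53, SE 0.05, adjusted p = 1.19e-16), an immunophilin of the steroid receptor complex and the only one called. Of 25 HSP70 relatives and cytosolic co-chaperones 11 were higher and 7 lower (median 0.03), with 1 called, Dnajb4, an HSP40 (-1.28, SE 0.10, adjusted p = 2.78e-10). Of 21 heat-inducible genes outside the members 10 were higher and 7 lower (median 0.03), Dnajb4 again being the 1 called. Of 14 subunits of the TRiC chaperonin, which folds actin and tubulin in the cytosol, and of its helper prefoldin, 12 were higher and 1 lower (median 0.27), all 8 subunits of TRiC itself among the former at 0.09 to 0.61.
Of 15 endoplasmic reticulum chaperones 13 were higher and none lower (median 0.59), with Sdf2l1, a co-chaperone of BiP, called at 1.43 (SE 0.08, adjusted p = 3.12e-12). Of 16 mitochondrial chaperones and proteases other than Hspd1 and Hspe1, 4 were higher and 5 lower (median 0.01). Hspa9, the mitochondrial HSP70 and named after its value was seen, was at 0.17. Of 3 tested genes listed as small heat shock proteins 1 was lower, Hspb1 at -0.31 (SE 0.12, adjusted p = 0.022). Of 3 heat shock factors tested 1 was lower, Hsf1 at -0.66 (SE 0.04, adjusted p = 4.44e-12), at 10.88 to 11.21 in the persistent and 11.59 to 11.81 in the PAt and Arrested libraries. Of 26 immediate early genes 3 were higher and 18 lower (median -0.50), with Jun at -2.09, Myc at -1.68, Klf4 at -1.64 and Fosb at -1.53 the largest called. The median over all tested genes was -0.01.

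The same lists were read in Teff against Tnaive, where 31.3% of all tested genes were higher and 27.7% lower by adjusted p alone, and 11.2% were called. Of the HSP90 co-chaperones 3 were higher and 4 lower (median -0.11, Fkbp5 called at 1.02), of the HSP70 relatives 6 and 6 (median -0.04, Hspa4l called at 1.10 and Dnajb4 at -1.56), of the TRiC and prefoldin subunits 2 and 8 (median -0.14), of the endoplasmic reticulum chaperones 6 and none (median 0.14), and of the mitochondrial genes none and 7 (median -0.17). Of the heat-inducible genes 4 were higher and 6 lower (median -0.05), with Hmox1 at 2.16 beside Dnajb4 and Hspa4l the called ones. Hmox1 is abundant in macrophages, and the summed myeloid markers were highest in Teff. Their part in its value was not tested. Of the heat shock factors Hsf4 was called at 1.15 (SE 0.16, adjusted p = 1.96e-06) and Hsf1 (-0.44) and Hsf2 (-0.53) were lower. Of the genes listed as small heat shock proteins 1 was lower, Hspb11 at -0.64. Hspb11 shares the symbol of that family, and nothing about small heat shock proteins is read from it. Of the immediate early genes 9 were higher and 12 lower (median -0.12), the largest called being Atf3 (2.09), Myc (-1.81), Egr2 (1.69) and Egr3 (1.38). Of the proliferation genes 13 of 16 were higher, with Mki67 at 4.14, and of the reference genes 2 were higher and 4 lower.

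**Figure D5:**
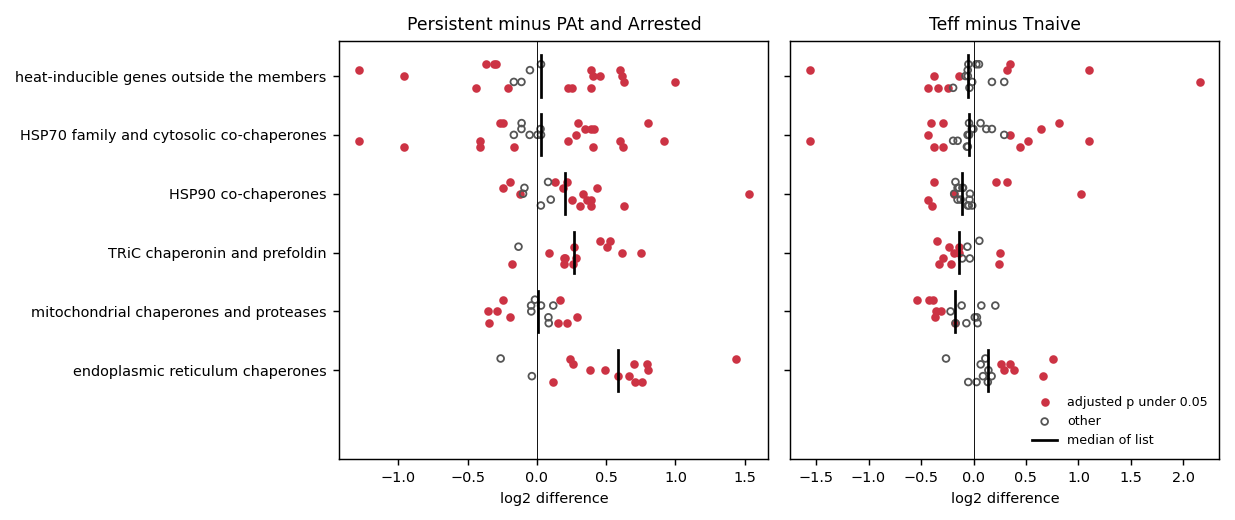
Log2 difference of each tested gene of 6 lists (rows) in the persistent contrast (left) and the effector contrast (right), with filled points for adjusted p under 0.05, open points for the others and a bar for the median of each list. The TRiC and endoplasmic reticulum lists lie mostly above 0 on the left, with medians of 0.27 and 0.59, and the TRiC list mostly below 0 on the right, with a median of -0.14.

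By the rule of likeness over all 18 libraries, the genes closest to the mean of Hspd1 and Hspe1 were Uchl5 (r = 0.98), a deubiquitinase of the proteasome, Calu (0.97), a calcium-binding protein of the endoplasmic reticulum, Cse1l (0.96), an export factor for importin, Smc1a (0.96), a cohesin subunit, and Set (0.96), a histone chaperone. Their log2 fold changes in the persistent contrast were 0.55, 0.33, 0.46, 0.37 and 0.43. The points share populations, so such values mostly follow the difference between the persistent expressers and the rest.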

How the data were processed

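RNA was measured in 18 libraries (6 sorted populations with 3 replicates each, per the labels), with poly(A) libraries read as paired ends of 100 bases. The authors deposited 1 table of log2 normalised counts for 15402 genes. According to the submitters' processing notes and the methods of the study, CASAVA 1.8.2, FastQC 0.11.2, TopHat2 2.0.9, DESeq2 and build mm10 were used. The libraries were made with a stranded mRNA kit. The read counter, the annotation and whether counting used the strand are not given in the sources used here. Values were not whole reads, and 173 values were below 0, so read depth is unknown and count models were not used. An earlier description of the values gives a regularised log transform, so fold changes and the fold threshold hold on that scale. Symbols that a spreadsheet had turned into dates (22 rows) were kept in the fit but not named.

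The filter kept genes whose log2 values averaged 3 or more (13190, while 2212 were left out). A model with 1 mean per population was fitted to all 18 libraries with limma 3.58.1 in R 4.3.3 (moderated by an eBayes step with a mean trend, 12 residual degrees of freedom), two-sided, with Benjamini-Hochberg adjustment over all tested genes. Calls needed both an adjusted p under 0.05 and a log2 fold change beyond 1 in size. Intervals are at 95%. Whether the replicates came from separate experiments is not stated beyond their being pools of 3 mice. The paper describes 3 groups, each made from pools of 3 mice. It does not state outright that libraries of the same number came from the same pool. The fit without a block treats all 18 libraries as independent and ignores such a pairing. Its p-values measure the spread between libraries within populations, which need not be that between independent pools. The scripts were tested on simulated data.

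The labels number the replicates 1 to 3 in every population. Deviations from the population means had a median correlation of 0.17 for 45 pairs of libraries with the same number (from -0.21 to 0.44, with 32 over 0.1) and of -0.06 for 90 pairs with different numbers. Above 0 were 42 of the 45 pairs with the same number and 17 of the 90 with different numbers. Libraries of the same number thus mostly deviated together, though not every pair did. The fit with the replicate number as a block (10 residual degrees of freedom) is an alternative, given beside results whose call or count it changes. Further alternatives were no filter, a mean of at least 6, no mean trend, the compared populations alone, no fold threshold, quantile normalisation, and each library or replicate number left out. Members and gene lists were chosen with earlier results of these data known. Genes outside the members were named where they were called in their list (at most 4 per list and comparison), were most like the members over the 18 libraries, or had the largest differences by replicate number in the heat-inducible and immediate early lists. Exceptions are marked in the text.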

Additional observations from a re-analysis of the deposited data

Results flagged for a closer look

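The interaction test (limma, adjusted over all tested genes) found that the difference between persistent expressers and PAt and Arrested was not the same as that between Teff and Tnaive for 6 of the 9 chaperone genes, where 48.7% of all tested genes passed. The difference of these log2 differences was 0.855 for Hspd1, 0.543 for Hsph1, 0.498 for Hspe1, 0.491 for Hspa8, 0.418 for Hsp90aa1 and 0.217 for Hsp90ab1. By sign, the effector difference was below 0 for Hspd1, Hspe1, Hspa8 and Hsp90ab1 and above 0 for Hsph1 and Hsp90aa1. After quantile normalisation Hspa8 (0.15, adjusted p = 0.10) and Hsp90aa1 (0.28, 0.12) no longer passed and Hsp90ab1 turned to -0.08. Most markers of other cells were lower in the interaction, as given above, and their part in it was not tested. Groups of 3 libraries were too small to look for single libraries far from the rest.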

How the results depend on the processing

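In the comparison of persistent expressers with PAt and Arrested, 1 member was called, against 2 with the replicate block, 0 without a mean trend and 7 without a fold threshold. The count ranged from 0 to 2 both with single libraries and with whole replicate numbers left out. Without a fold threshold, 5 members passed in Teff against Tnaive, 5 in persistent expressers against Teff, 2 in PAt and Arrested against Tnaive, 3 in PAt and Arrested against Teff and 6 in the interaction, where 0 were called. Quantile normalisation between libraries reversed 5 values. In Teff against Tnaive Hspa8 became 0.17 and Hsp90ab1 0.16, in PAt and Arrested against Tnaive they became 0.18 and 0.13, and in the interaction Hsp90ab1 became -0.0801. It moved the median of all genes by over 0.1 in Teff against Tnaive alone (to -0.10). With libraries left out, Hspa1a ranged from -0.11 to 1.19 and Hspa1b from -0.0694 to 1.125 in Arrested against PAt. The cause was not tested. Counts of called members in the other 7 comparisons were 0 under every setting with a fold threshold. Dnajb1, Hsph1, Hspa8, Hsp90aa1 and Hspd1 passed in all 27 alternatives in the persistent comparison. Members above 0 by replicate number in all populations numbered 6, and 5 after quantile normalisation. The 10 genes most like the HSP70 group were all kept at a mean filter of 6. In deviations from the population means, 17 of 18 libraries correlated best with a library of their own number, and the replicate block moved counts by adjusted p alone from 5 to 8 (Teff against Tnaive), 5 to 9 (persistent against Teff) and 2 to 8 (PAt and Arrested against Tnaive). The compared populations alone were not run for the interaction. Read depth is unknown and sets no limit that could be stated.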
